A study of Mus musculus with 6 samples.

Results

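The genes described here are the bone morphogenetic protein (BMP) ligand genes Bmp2, Bmp4, Bmp6, Gdf10 and Gdf15, the antagonist genes Grem1 and Bmper, and the inhibitor of DNA binding genes Id1, Id2 and Id3. They were chosen by symbol, and every probe set annotated with exactly 1 of these symbols was taken. Of the 10 genes, 9 had such a probe set, with 11 probe sets in all among the 45101 of the array and 9 genes among 18194. No probe set was listed for Gdf15, which is not analysed here. RNA levels were read on Affymetrix arrays, with cells taken by sorting out of left ventricles; the animals were Black Swiss males aged 8 to 10 weeks. Transverse aortic constriction (TAC) had been applied to 3 mice to overload the left ventricle with pressure, another 3 mice had a sham operation, and the cells were taken 1 week later. The groups were Tie2-Cre traced fibroblasts after TAC and after sham, untraced fibroblasts after TAC and after sham, and endothelial cells after TAC and after sham. Each of these groups had 1 array, and the labels do not say whether the mice were pooled or whether cells of 1 surgery shared hearts. The markers used for sorting are not given either. In Tie2-Cre mice the Tek (Tie2) promoter, active in endothelial and some blood cells, drives a recombinase. Tracing therefore marks cells with past or present activity of that promoter, and traced fibroblasts need not have been endothelial cells.

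BMP ligands are secreted dimers that bind pairs of type I and type II serine/threonine kinase receptors, and the activated receptors phosphorylate SMAD transcription factors, which switch on the Id genes among others. Id proteins lack a DNA-binding region and hold back basic helix-loop-helix transcription factors by pairing with them. Secreted antagonists such as gremlin bind the ligands outside the cell, and in the heart the pathway is best known for its part in valve and septum formation, in endothelial cells and in fibrosis.

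All values below are log2 of the deposited probe set intensity, or differences between such values, unless a fold or a percentage is given. Array medians lay between 6.74 and 6.85. Genes that exceeded the array median on 1 or more of the arrays in a comparison are called detected. Traced and untraced arrays of 1 surgery were the closest pairs (correlation across probe sets 0.991 at both surgeries), and after TAC their differences had a standard deviation of 0.274 across detected genes. Several facts of the arrays run along with the groups. The 12 fibroblast markers summed to 17.00 to 17.07 on the fibroblast arrays, against 15.62 on the endothelial TAC array and 12.36 on the endothelial sham array. The 14 endothelial markers summed to 12.17 to 13.15 on the fibroblast arrays and to 16.86 (TAC) and 17.08 (sham) on the endothelial arrays. Among the most abundant markers, Dcn, a matrix proteoglycan, stood at 14.32 to 14.49 and Col1a2, a fibrillar collagen gene, at 13.79 to 14.30 on the fibroblast arrays, while Fabp4, a fatty acid carrier, stood at 14.36 and 14.53 and Cdh5, an endothelial cadherin, at 13.81 and 14.11 on the endothelial TAC and sham arrays. Spike-in bioB controls averaged 8.57 to 9.12 on the fibroblast arrays and 10.95 to 11.05 on the endothelial ones. A technical difference and cell type cannot be told apart here. 18S ribosomal RNA stood at 12.04 on the untraced TAC array and at 14.11 to 14.64 on the others.

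The 250 bases before the start of 4 members are shown because these genes carry the patterns that follow: Id3 and Id2 as targets that leaned to opposite cell types, Bmper with the largest difference between cell types and Gdf10 with the largest TAC difference in fibroblasts. The sequences are those of RefSeq (GRCm38.p6), 5′ to 3′ on the strand of the gene, and 7 of the 9 measured members had an entry. Capitals mark matches to GGCGCC, a motif known from BMP-responsive SMAD sites, and to CAGAC, a SMAD box, each searched on both strands, with no overlap between the motifs here.
Id3, chr4:136143572-136143821, plus strand: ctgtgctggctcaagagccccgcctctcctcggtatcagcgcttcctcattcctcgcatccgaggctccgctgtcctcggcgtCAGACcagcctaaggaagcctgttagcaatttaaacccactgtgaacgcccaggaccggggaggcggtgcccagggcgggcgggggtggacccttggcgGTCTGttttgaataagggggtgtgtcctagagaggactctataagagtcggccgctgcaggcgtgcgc
Id2, chr12:25096093-25096342, minus strand: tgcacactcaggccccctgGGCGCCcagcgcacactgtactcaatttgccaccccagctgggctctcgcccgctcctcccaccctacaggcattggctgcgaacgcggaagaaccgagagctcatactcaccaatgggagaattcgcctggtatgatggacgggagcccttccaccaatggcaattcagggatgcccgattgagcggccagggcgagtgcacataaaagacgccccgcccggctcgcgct
Bmper, chr9:23222826-23223075, plus strand: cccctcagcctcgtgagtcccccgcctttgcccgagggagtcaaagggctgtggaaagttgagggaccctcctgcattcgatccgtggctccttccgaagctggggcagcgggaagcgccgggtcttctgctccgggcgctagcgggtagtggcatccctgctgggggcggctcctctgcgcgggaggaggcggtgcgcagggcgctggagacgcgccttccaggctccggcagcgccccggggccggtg
Gdf10, chr14:33923337-33923586, plus strand: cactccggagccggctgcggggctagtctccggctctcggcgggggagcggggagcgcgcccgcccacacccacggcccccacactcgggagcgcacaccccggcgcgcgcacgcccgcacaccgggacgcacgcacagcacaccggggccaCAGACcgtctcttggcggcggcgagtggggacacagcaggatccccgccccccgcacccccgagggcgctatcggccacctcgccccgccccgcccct
Id3 held 2 matches to CAGAC and none to GGCGCC, with the nearer one starting 68 bases before the gene. Id2 held 1 match to GGCGCC, starting 231 bases before the gene, and Gdf10 held 1 to CAGAC, while Bmper held neither motif in this window. Of 32851 such windows over all genes, 9.59% held GGCGCC and 42.2% held CAGAC, so a match to CAGAC is common. These are descriptions of letters and show no binding.

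The first comparison asks which members belong to fibroblasts and which to endothelial cells of the left ventricle. Bmper and Id2 were higher in fibroblasts and Id1 was higher in endothelial cells. These are 2 of 8 detected members called higher in fibroblasts, against 11.5% of 12257 detected genes, and 1 called higher in endothelial cells, against 6.5%. A call needed an adjusted p under 0.05 and at least a 2-fold difference (limma, Benjamini-Hochberg over all detected genes, 2 values per cell type after averaging traced and untraced arrays of 1 surgery). By the same rule 13 of 14 endothelial markers but only 5 of 12 fibroblast markers were called. All 12 fibroblast markers stood higher in fibroblasts, by 2.59 to 5.01. A member that did not pass may therefore still differ between the cell types. For 5 of the 8 members all fibroblast levels lay above both endothelial levels, as for 37.8% of detected genes, and for 2 all lay below, as for 19.9%. In bulk samples such as these, fewer cells of a type and less RNA per cell cannot be told apart.

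**Figure D1:**
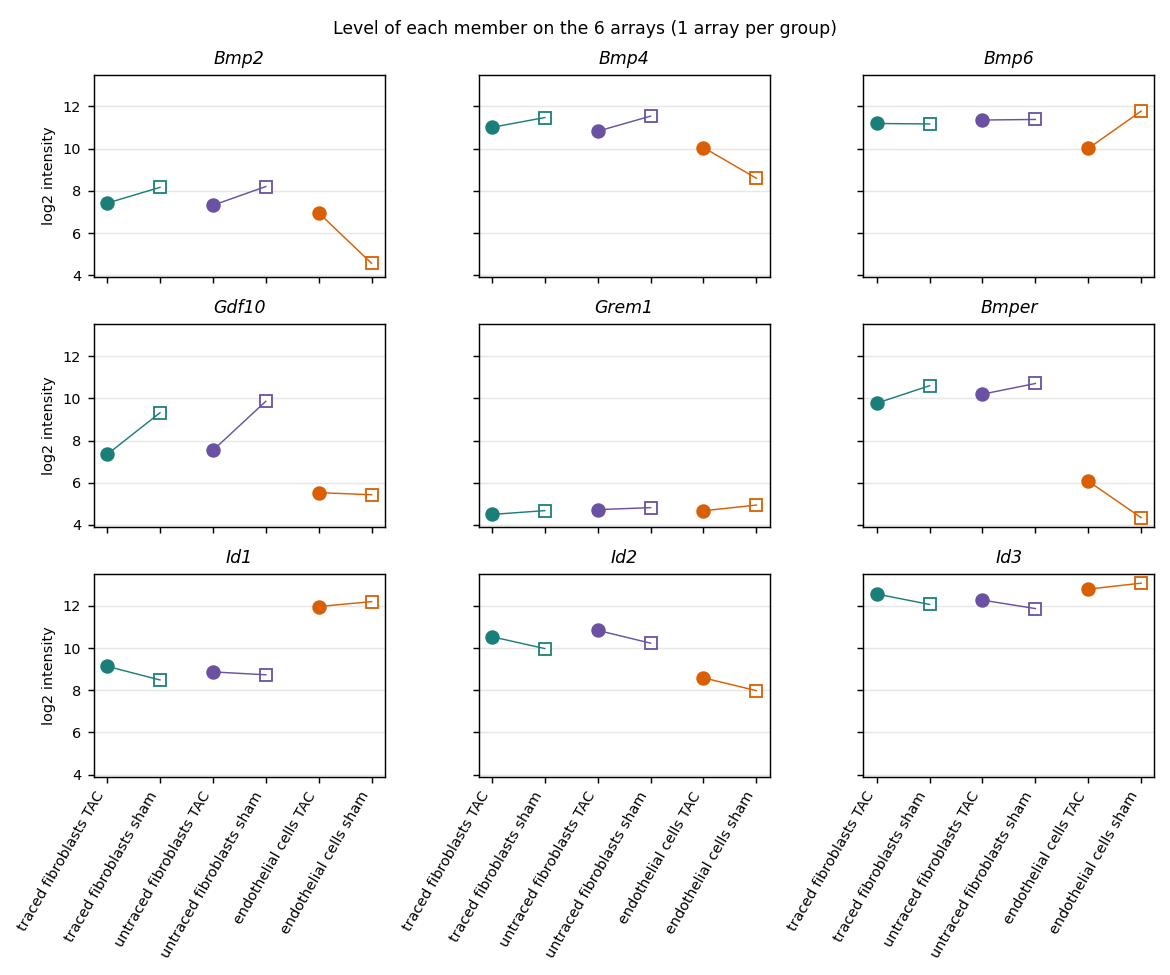
Level of the 9 measured members on each of the 6 arrays, as log2 intensity (y axis, shared by the panels). Filled circles are TAC and open squares sham arrays, with a line joining the arrays of 1 population. Levels compare within a panel, not between panels, since each probe set has its own response. Bmper and Id1 separate the cell types widely, and Gdf10 separates TAC from sham in both fibroblast populations.

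Among the ligands, Bmp2, a strong inducer of SMAD signalling, stood at 7.42 in traced fibroblasts after TAC and 8.17 after sham, and at 7.32 in untraced fibroblasts after TAC and 8.20 after sham. On the endothelial arrays it stood at 6.96 after TAC and 4.56 after sham, and the sham level lay at the 16.3 percentile of its array. All 4 fibroblast levels lay above both endothelial levels, but the gap narrowed to 0.41 after TAC, against 3.62 at sham. The mean difference was 2.02 with a standard error of 0.863 and did not pass (limma adjusted p = 0.176, 95% confidence interval -0.26 to 4.29).

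Bmp4, the closest relative of Bmp2, stood at 11.01 and 11.48 in traced fibroblasts after TAC and sham, at 10.83 and 11.54 in untraced fibroblasts after TAC and sham, and at 10.05 and 8.60 in endothelial cells after TAC and sham. The cell types did not overlap here either, with gaps of 0.87 after TAC and 2.91 at sham. The difference of 1.89 (standard error 0.561) did not pass (limma adjusted p = 0.0861, 95% confidence interval 0.41 to 3.37).

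Bmp6, a ligand known as an endothelial signal in iron control by the liver, was the only measured ligand whose cell types overlapped. It stood at 11.19 and 11.17 in traced fibroblasts after TAC and sham and at 11.36 and 11.38 in untraced fibroblasts after TAC and sham. On the endothelial arrays it stood at 10.01 after TAC and 11.78 after sham, which are the lowest and the highest of its 6 values. The fibroblast minus endothelial difference was therefore 1.27 after TAC and -0.50 at sham, with a mean of 0.38 (limma adjusted p = 0.693, 95% confidence interval -1.26 to 2.03).

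Gdf10, also known as BMP3b and a distant relative of the other ligands, stood at 7.34 and 9.32 in traced fibroblasts after TAC and sham and at 7.53 and 9.86 in untraced fibroblasts after TAC and sham. Both endothelial arrays had it at 5.53 (TAC) and 5.43 (sham), below their array medians. The order was sham fibroblasts, then TAC fibroblasts, then endothelial cells, without overlap, and the 2 endothelial levels lay within 0.10 of each other. The difference of 3.03, or 8.18-fold, had a standard error of 0.742 and missed the threshold (limma adjusted p = 0.0566, 95% confidence interval 1.07 to 4.99).

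**Figure D2:**
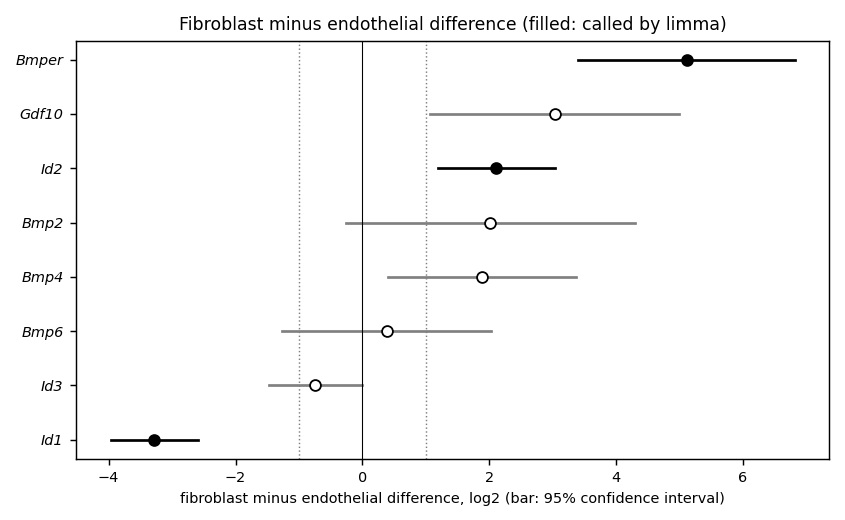
Fibroblast minus endothelial difference of the 8 detected members (x axis, log2), with 95% confidence intervals from limma as bars and filled points for called members. Dotted lines mark a 2-fold difference. Bmper (5.11), Id2 (2.11) and Id1 (-3.28) were called.

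Of the antagonists, Bmper, a secreted BMP-binding protein related to Drosophila crossveinless, stood at 9.77 and 10.60 in traced fibroblasts after TAC and sham and at 10.20 and 10.71 in untraced fibroblasts after TAC and sham. On the endothelial arrays it stood at 6.07 after TAC and 4.34 after sham, the 39.0 and 14.0 percentiles of those arrays. It was higher in fibroblasts by 5.11 with a standard error of 0.648, or 34.6-fold (limma adjusted p = 0.0141), the largest difference of the 8 detected members, and its size rests on dim endothelial values. Grem1, which encodes the BMP2 and BMP4 antagonist gremlin, lay between 4.50 and 4.94 on all 6 arrays, under the 22nd percentile of each, and was not detected. No statement on its direction can be made at this signal.

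The Id genes split by cell type. Id1 stood at 9.14 and 8.49 in traced fibroblasts after TAC and sham, at 8.87 and 8.73 in untraced fibroblasts after TAC and sham, and at 11.97 and 12.20 in endothelial cells after TAC and sham. It was lower in fibroblasts by -3.28 (standard error 0.262, limma adjusted p = 0.00645), which is 9.71-fold higher in endothelial cells, and the gap was similar after TAC (-2.97) and at sham (-3.59).

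Id2 went the other way, at 10.54 and 9.98 in traced fibroblasts after TAC and sham, 10.84 and 10.23 in untraced fibroblasts after TAC and sham, and 8.59 and 7.98 in endothelial cells after TAC and sham. It was higher in fibroblasts by 2.11 (standard error 0.351, 4.32-fold, limma adjusted p = 0.0241), with nearly the same gap after TAC (2.10) and at sham (2.12). Its other probe sets gave smaller gaps of 0.89 and 0.91 after TAC and 0.70 and 0.26 at sham, all in the same direction, so the size depends on the probe set.

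Id3 stood at 12.56 and 12.07 in traced fibroblasts after TAC and sham, 12.27 and 11.87 in untraced fibroblasts after TAC and sham, and 12.79 and 13.08 in endothelial cells after TAC and sham. Both endothelial levels lay above all fibroblast levels, but the difference of -0.74 did not pass (limma adjusted p = 0.136, 95% confidence interval -1.47 to -0.01).

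Id1 and Bmper kept their calls whichever single array was left out, while Bmp2, Bmp4, Gdf10 and Id2 each changed sides of the threshold under at least 1 such omission. Leaving out an endothelial array left 1 endothelial value, so only differences are given for it. Without the endothelial TAC array the difference was 3.21 for Bmp2, 2.62 for Bmp4 and 2.42 for Id2. Without the endothelial sham array it was 0.82 for Bmp2, 1.16 for Bmp4 and 1.81 for Id2. With surgery as a block, which fits the shift between surgeries, Bmp4 passed (limma adjusted p = 0.0365), so that 4 members were called higher in fibroblasts. Gdf10 passed without the traced TAC array (limma adjusted p = 0.0472) and without the untraced sham array (0.0479). It also passed with the surgery block (0.0102) and with the 6 arrays entered singly (0.0192). Under the other alternatives that kept both endothelial arrays Gdf10 did not pass.

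The second comparison asks how these genes differed between TAC and sham hearts, in each population. In fibroblasts the ligands other than Bmp6, and Bmper, stood lower after TAC in both populations, while all 3 Id genes stood higher. Gdf10 alone reached 2-fold in both, 4.44-fold lower on average. That is 1 of 8 detected members at least 2-fold lower in both fibroblast populations, against 1.79% of 11623 detected genes, and 0 of 8 at least 2-fold higher, against 4.33%. In traced fibroblasts alone the background was 6.19% higher and 2.66% lower, and in untraced fibroblasts 4.98% higher and 2.95% lower, with Gdf10 again the only member past 2-fold. With 1 array per population and surgery none of these differences was tested, and both populations may share hearts.

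**Figure D3:**
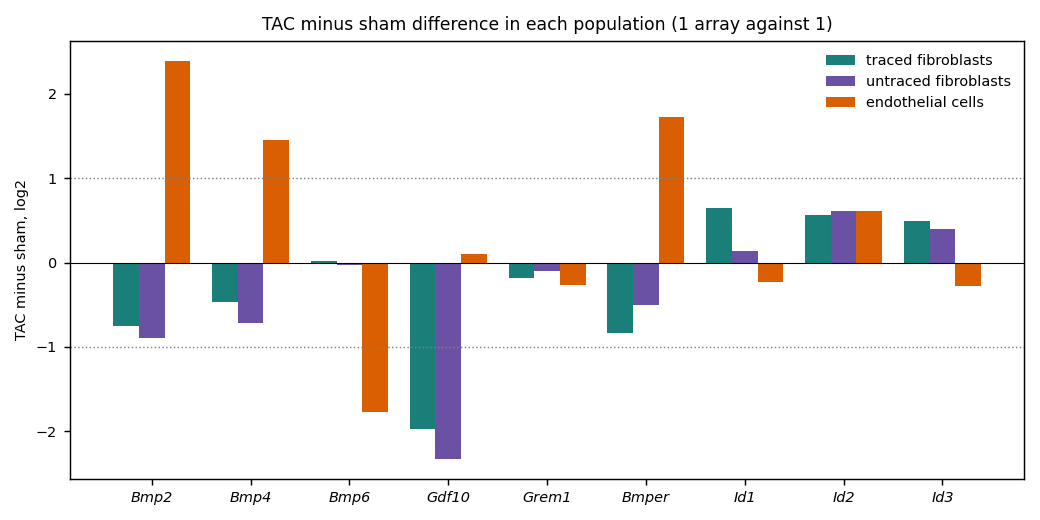
TAC minus sham difference (y axis, log2) of the 9 measured members in traced fibroblasts, untraced fibroblasts and endothelial cells, each bar being 1 TAC array minus 1 sham array. Dotted lines mark 2-fold. Gdf10 lies near -2 in both fibroblast populations, and Bmp2, Bmp4 and Bmper lie below 0 in fibroblasts and above 1 in endothelial cells; Grem1 was not detected, nor Gdf10 and Bmper on the endothelial arrays.

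Gdf10 stood lower after TAC by -1.97 in traced and -2.33 in untraced fibroblasts. Its TAC levels of 7.34 and 7.53 lay well under the sham levels of 9.32 and 9.86, and the gap between the surgeries was several times that between traced and untraced cells of 1 surgery (-0.19 after TAC, -0.55 at sham). Bmp2 stood lower by -0.75 in traced and -0.89 in untraced fibroblasts. Bmp4 stood lower by -0.47 in traced and -0.71 in untraced fibroblasts, and Bmper by -0.83 in traced and -0.51 in untraced fibroblasts. For these 4 of 8 detected members both TAC levels lay below both sham levels, as they did for 26.2% of detected genes, so such separation is common on these arrays. Bmp6 differed by 0.02 in traced and -0.03 in untraced fibroblasts, so its fibroblast levels were level between the surgeries.

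The Id genes stood above sham in both fibroblast populations by less than 2-fold. Both TAC levels lay above both sham levels for these 3 of 8 detected members, as for 34.0% of detected genes. Id1 was 0.65 higher in traced but only 0.14 higher in untraced fibroblasts after TAC. Id3 was 0.49 higher in traced and 0.40 higher in untraced fibroblasts, and Id2 was 0.56 higher in traced and 0.61 higher in untraced fibroblasts. For Id2 the other probe sets gave 0.14 and 0.44 in traced and 0.03 and 0.01 in untraced fibroblasts, so its difference rests largely on 1 probe set. The median of the 12 immediate early genes, which respond to cell isolation, was 0.10 in the same comparison. Of these 12 genes 2, Egr2 and Ier3, rose past 2-fold after TAC in traced and untraced fibroblasts alike, against 4.33% of detected genes. The part of cell isolation in the Id values was not tested.

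The endothelial arrays gave another picture. Bmp2 stood 5.26-fold higher after TAC (2.40) and Bmp4 2.75-fold higher (1.46), while Bmp6 stood 3.42-fold lower (-1.77). These are 2 of 6 detected members at least 2-fold higher, against 10.9% of 11157 detected genes, and 1 of 6 at least 2-fold lower, against 1.83%. Bmp2 counts as detected here only through its TAC level, at the 51.4 percentile of its array. Its sham level lay at the 16.3 percentile, so the size of its difference rests on a dim value. Bmper, below the array median on both arrays, was 1.73 higher, and Gdf10, also below it, 0.10 higher. Id1 (-0.23) and Id3 (-0.28) stood slightly lower, and Id2 stood 0.61 higher, with -0.11 and -0.43 from its other probe sets.

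Fibroblast markers moved with these values. Of the 12 fibroblast markers 11 were past 2-fold higher in endothelial cells after TAC, with a median difference of 3.03, and the 14 endothelial markers had a median of -0.24 with 0 past 2-fold. On the endothelial TAC array the fibroblast markers reached 9.70% to 64.5% (median 25.8%) of the intensity in TAC fibroblasts, against 0.989% to 11.6% (median 3.21%) at sham. Bmp2 reached 75.4% of the fibroblast level after TAC and 8.12% at sham, and Bmp4 54.9% after TAC and 13.3% at sham. Bmper stayed lower, at 6.64% after TAC and 1.26% at sham, and Gdf10 stood at 26.7% after TAC, where the fibroblast level itself was lower, and 5.6% at sham. Id2 stood at 23.3% after TAC and 22.9% at sham. Fibroblast RNA on the endothelial TAC array was not tested as a source of the Bmp2, Bmp4 and Bmper values. Bmp6 did not move with the markers: its endothelial TAC level of 10.01 was below the TAC fibroblasts (11.19 and 11.36) and below the endothelial sham array (11.78).

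**Figure D4:**
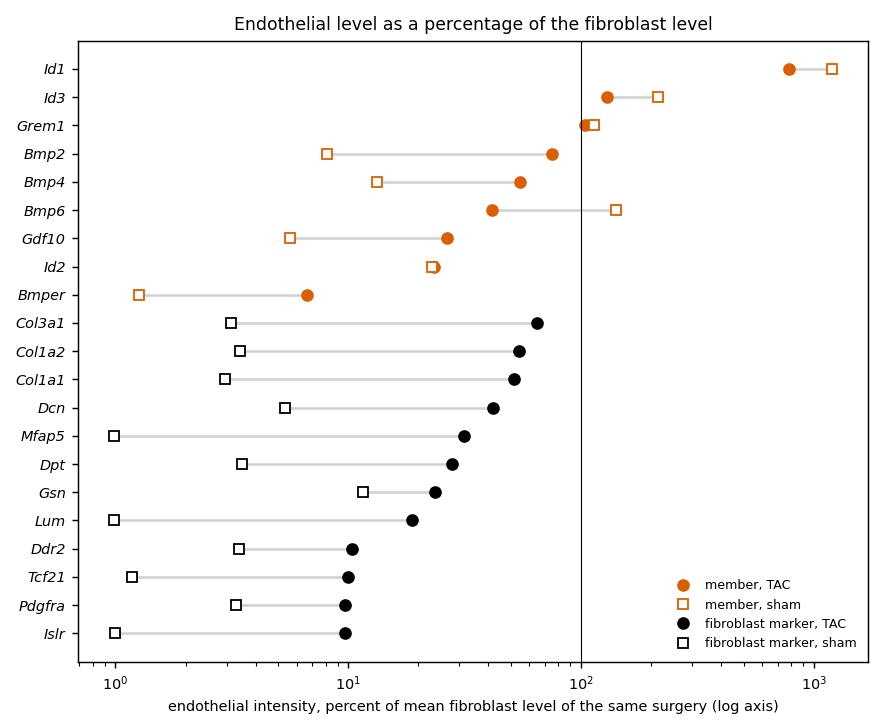
Endothelial intensity as a percentage of the mean fibroblast level of the same surgery (x axis, log scale; fibroblast level from the mean of traced and untraced log2 values), for the 9 measured members (orange) and 12 fibroblast markers (black). Filled circles are TAC and open squares sham. Every fibroblast marker lies further right after TAC, and so do Bmp2, Bmp4, Bmper and Gdf10, though for Gdf10 the fibroblast level itself was lower. Id2 hardly moves, and Bmp6, Id1, Id3 and the undetected Grem1 move left.

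The third comparison asks whether Tie2-Cre tracing separated fibroblasts in these genes. None of the 8 detected members reached 2-fold at both surgeries, where 0.0688% of 11623 detected genes did in either direction (0.0344% higher and 0.0344% lower). The largest traced minus untraced difference was that of Gdf10 at sham (-0.55), which was -0.19 after TAC. Bmper was -0.43 after TAC and -0.10 at sham, Id3 0.29 after TAC and 0.20 at sham, Id2 -0.30 after TAC and -0.26 at sham, and Id1 0.27 after TAC but -0.24 at sham. Bmp2, Bmp4 and Bmp6 lay between -0.21 and 0.18 at both surgeries. These 3 ligands and Id1 stayed within the spread of 0.274 across detected genes given above, while Gdf10, Bmper, Id2 and Id3 exceeded it at 1 or both surgeries. The other Id2 probe sets stood higher in traced cells, by 0.13 and 0.66 after TAC and 0.02 and 0.24 at sham, so the sign for Id2 depends on the probe set.

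Other genes of the pathway came from lists written with earlier results of these data known. Of 16 other BMP and GDF ligand genes 11 had a probe set and 1, Bmp5, was detected. Between cell types Bmp5 differed by -0.61 (limma adjusted p = 0.383).

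Of the receptor and co-receptor genes 10 were detected, with 4 called for fibroblasts and 1 for endothelial cells, against 11.5% and 6.5% of all detected genes, and with a median of 0.02 beside 0.22 for all detected genes. The type I receptor gene Bmpr1a was higher in fibroblasts by 3.06 (limma adjusted p = 0.0155), and so were the repulsive guidance co-receptor genes Rgma (3.69, adjusted p = 0.00809) and Rgmb (1.33, adjusted p = 0.0358) and their binding partner neogenin, Neo1 (1.86, adjusted p = 0.0176). Rgma stood at 5.53 and 5.03 on the endothelial TAC and sham arrays, below their medians, so the size of its difference rests on dim values. Eng, the endothelial co-receptor endoglin, was lower in fibroblasts by -1.74 (limma adjusted p = 0.0168). The type II receptor gene Bmpr2 (-0.16) and the endothelial type I receptor gene Acvrl1 (-0.04) did not pass (limma adjusted p = 0.696 and 0.948). After TAC the type II receptor gene Acvr2b was at least 2-fold lower in both fibroblast populations, by -1.26 in traced and -1.99 in untraced cells. In endothelial cells Bmpr1a was 1.03 higher and the type II receptor gene Acvr2a was lower by -1.03 after TAC. The endothelial Bmpr1a level was 7.87% of the fibroblast level at sham and 18.2% after TAC, beside the fibroblast marker values given above.

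None of the 5 detected SMAD genes was called between cell types by limma (median -0.47). Of all detected genes 11.5% were called for fibroblasts and 6.5% for endothelial cells. After TAC none was at least 2-fold higher or lower in both fibroblast populations, against 4.33% and 1.79% of detected genes. The median was 0.12, beside 0.05 for all detected genes. With 5 genes, counts of 0 at such shares say little about SMAD genes. Smad5, a BMP-specific signal transducer, stood 1.03 higher in endothelial cells after TAC.

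Other antagonists and modulators had 9 detected genes, with 5 called for fibroblasts and 1 for endothelial cells, against 11.5% and 6.5% of all detected genes, and with a median of 2.08 beside 0.22. The fibroblast ones included Kcp, a kielin/chordin-like modulator (5.34, limma adjusted p = 0.0189), and Nbl1, a relative of gremlin (3.06, adjusted p = 0.00618). The others were the activin-binding follistatin, Fst (1.56, limma adjusted p = 0.0343), its relative Fstl3 (2.73, adjusted p = 0.0128), and chordin, Chrd (2.41, adjusted p = 0.0291). On the endothelial TAC and sham arrays Fst (6.36 and 5.83) and Chrd (6.48 and 6.0) lay below the medians, so their sizes rest on dim values. Crim1, a membrane protein that binds BMPs, was lower in fibroblasts by -2.52 (limma adjusted p = 0.0181). None was at least 2-fold higher or lower in both fibroblast populations after TAC (median -0.24), against 4.33% and 1.79% of detected genes. In endothelial cells 4 of 7 stood at least 2-fold higher after TAC, against 10.9% of detected genes, with a median of 1.39 beside 0.18: Fstl1 (2.41), Kcp (2.25), Twsg1 (1.74) and the pseudoreceptor gene Bambi (1.39), beside the fibroblast marker values given above. Kcp counts as detected there only through its TAC level of 7.88, since its sham level was 5.63.

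Of 6 detected other target genes 2 were higher in endothelial cells, namely Atoh8 (-2.23, limma adjusted p = 0.0399) and the Notch and BMP target Hey1 (-2.20, adjusted p = 0.00997), and 0 in fibroblasts, against 6.5% and 11.5% of all detected genes, with a median of 0.30 beside 0.22. In fibroblasts Atoh8 was at least 2-fold higher after TAC, by 1.11 in traced and 1.03 in untraced cells. In endothelial cells Tbx20, a cardiac T-box factor gene, stood 3.25 higher after TAC, at 10.13 against 6.88 at sham. On the fibroblast arrays Tbx20 stood at 12.81 to 13.08. Its endothelial level was thus 1.55% of the fibroblast level at sham and 13.0% after TAC, beside the fibroblast marker values given above. Fibroblast RNA was not tested as a source of this value. Msx1 stood 1.08 higher after TAC and 1.39 higher at sham in traced than in untraced fibroblasts.

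**Figure D5:**
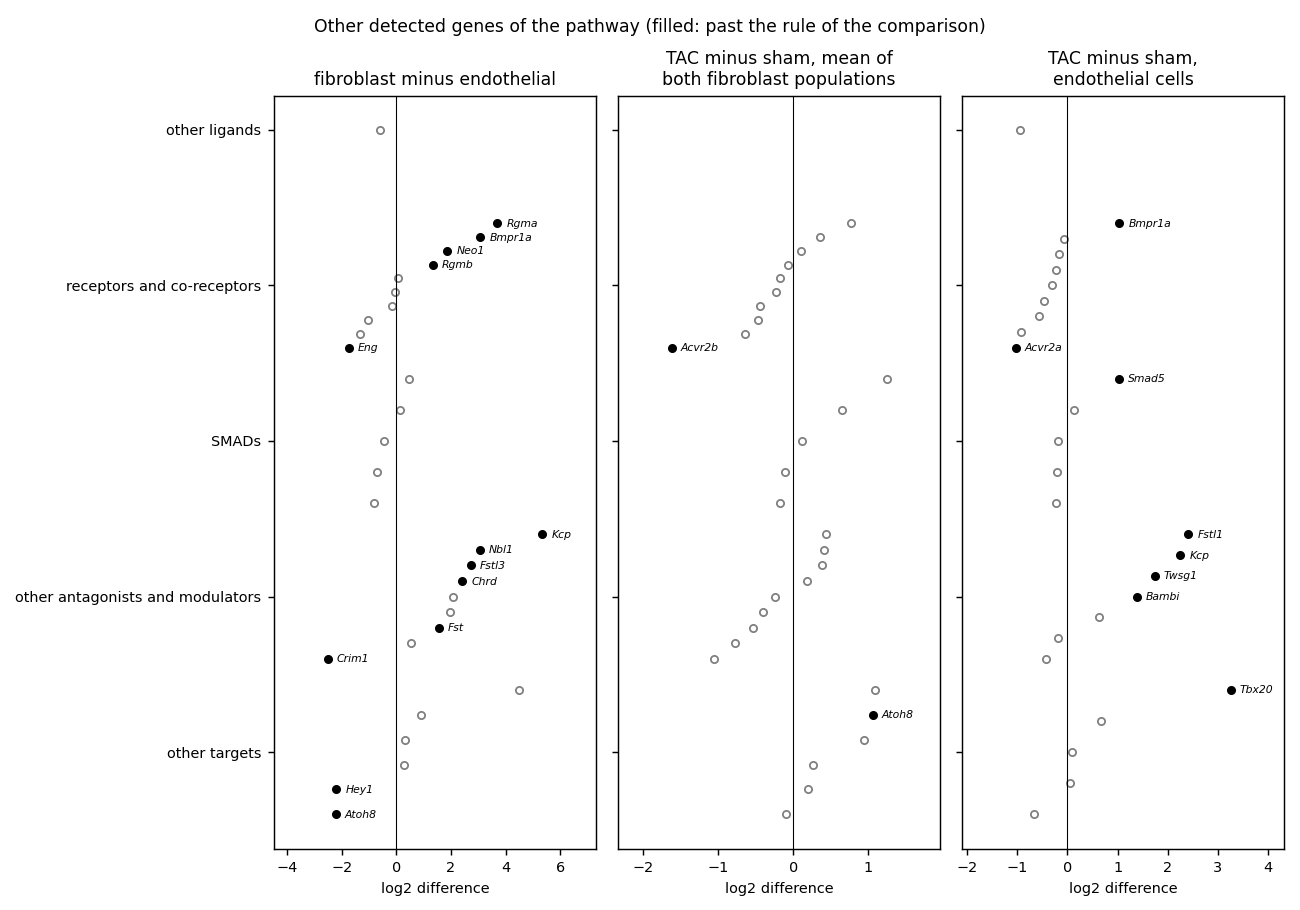
Differences (x axis, log2) of the other detected pathway genes, grouped by role. Filled points with names passed the rule of the panel: limma adjusted p and 2-fold between cell types, 2-fold in both fibroblast populations, or 2-fold in endothelial cells. Antagonist genes lie mainly on the fibroblast side of the left panel.

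For each member the detected genes with the most similar pattern over the 6 arrays were looked up among 4989 genes with a standard deviation of at least 0.5. These correlations are descriptions over 6 arrays that share their cell type contrast. For Id3 the most similar gene was Atoh8 (Pearson r = 0.99), at 8.38 and 7.28 in traced fibroblasts after TAC and sham, 7.99 and 6.96 in untraced fibroblasts after TAC and sham, and 9.55 and 10.21 in endothelial cells after TAC and sham. It was followed by Tnnt2, the cardiac troponin T gene, and Arhgap12 (r = 0.99 each). The 9 cardiomyocyte markers summed to 10.28 to 10.76 on the fibroblast arrays, against 12.27 (TAC) and 13.40 (sham) on the endothelial arrays, and their part in the Id3 pattern was not tested. Id1 was most like Sox18, an endothelial transcription factor gene, then Chd1 and Mef2c (r = 1.00 each), with 95 genes above 0.99. Id2 was most like Gpt2, L3hypdh and Kcne1l, with 120 genes above 0.99, and Bmper like Reck, Cpq and Prr3, with 244 above 0.99. Bmp2 was most like Neil1, Dhrs4 and 2310009B15Rik (r = 1.00, 0.99 and 0.99), Bmp4 like Gpatch4, Usp20 and Slc15a4 (r = 1.00 each), and Gdf10 like Slc16a10, Agap1 and Dpp4 (r = 1.00 each). Bmp6, Id3 (highest r = 0.9885) and Grem1 had no gene above 0.99. The most similar to Bmp6 were Mndal, an interferon-inducible p200 gene (r = 0.93), Ecm2 (0.93) and BC023105 (0.90). Mndal stood at 2.99 on the endothelial TAC array and 10.53 on the endothelial sham array. For the undetected Grem1 the most similar were Perp, Trim21 and Atp2a3 (r = 0.92, 0.91 and 0.90).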

How the data were processed

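The authors deposited probe set intensity values for 6 arrays, 1 per group, each prepared with 200 ng RNA per the labels' protocols. The submitters' processing notes name RMA (background correction, between-array normalization, probe summary on a log2 scale); its version is not given in the sources used here. Deposited intensity values ran between 3.82 and 37205, so the linear scale is read from the values. RMA pulls dim differences towards 0, gives no detection call, and the number of arrays limits the precision.

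The members and lists were chosen with earlier results of these data known. Log2 of the intensity was taken with no further normalization. Symbols were those of the platform annotation after an update through gene identifiers, of which 99.4% were found. Of the probe sets 34958 had 1 symbol, 932 several and 9211 are unnamed here. A gene was represented by its probe set of highest mean, and 12257 genes were detected in all populations together, 11623 in fibroblasts and 11157 in endothelial cells. The cell type test used 2 values per cell type and limma 3.58.1 (lmFit and eBayes, Benjamini-Hochberg adjustment) under R 4.3.3. It was also run on simulated data with independent noise, set from the spread between traced and untraced arrays. That simulation held no shift between surgeries, so it does not show how the test behaves on these arrays. The labels do not show separate mice behind these values, so the p-values cover no more than the spread of these samples, here that between the surgeries, which may be technical. TAC and lineage differences set 1 array against 1 and were not tested. All members are named, and of the pathway lists those past a rule, up to 5 per list and comparison. For each member the 3 genes with the highest correlation are named. Alternatives changed the filter, the probe set, the normalization, the offset (32 intensity units), the model and the arrays used.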

Additional observations from a re-analysis of the deposited data

Results flagged for a closer look

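In 6 of the 8 detected members the endothelial TAC minus sham difference had the opposite sign to that of both fibroblast populations, and the difference between cell types was not tested because each group had 1 array. Over all 12257 detected genes 24.0% had such opposite signs. Among the 6 members, Gdf10 and Bmper lay below the array median on both endothelial arrays, so their endothelial signs rest on dim values. The endothelial response exceeded the mean fibroblast response by 3.22 for Bmp2, 2.05 for Bmp4, 2.25 for Gdf10 and 2.40 for Bmper (log2). It lay below the fibroblast response for Id1 (-0.62) and Id3 (-0.73). The value for Gdf10 came almost wholly from the fibroblast arrays, where its mean TAC difference was -2.15, since the endothelial difference was 0.10.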

How the results depend on the processing

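Samples could not be paired by replicate number, because every group has only replicate number 1. Pairing the cell types by surgery was possible and is the surgery block, which the main test leaves out. Of 478 values recomputed under the alternatives 452 were scored as the same. For single genes this meant the same direction and side of the threshold, or a move within the spread between traced and untraced arrays. For counts, 92 of the 452, it meant a change within a set ratio, such as 1415 to 981 genes higher in fibroblasts. Many values could not move, so the share says little about stability. The filter leaves TAC and lineage differences of a gene unchanged, and 8 of 9 measured members had 1 probe set. With surgery as a block 2298 genes in all and 4 members were higher in fibroblasts, and with the 6 arrays entered singly 2211 genes and 5 members. Leaving out 1 array at a time gave 685 to 1715 genes higher in fibroblasts, 472 to 817 higher in endothelial cells, and 1 to 4 members higher in fibroblasts, with the lowest counts without the endothelial sham array. Id1 was called in every one of its 15 alternatives and Bmper in every one of its 16. Without probe sets of x, s or a suffix, 1 member was higher in fibroblasts and 0 in endothelial cells, because Id1 then has no probe set and the remaining one of Id2 is not detected. The Bmp6 difference between cell types turned to -0.505 without the endothelial TAC array and was 1.267 without the endothelial sham array. With the filter at the upper quartile 1 member was at least 2-fold higher in endothelial cells after TAC, because Bmp2 is then not detected. With 32 intensity units added before log2, the endothelial TAC difference of Bmp2 was 1.49 (2.40 without). The mean of all probe sets gave Id2 a TAC difference of 0.22 in untraced fibroblasts and 0.02 in endothelial cells, and a traced minus untraced difference of 0.16 after TAC, the other sign from its main probe set.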

Other observations

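The SMAD genes of negative feedback, chosen here after their values were seen, stood higher in fibroblasts after TAC. Smad6 stood at 8.40 and 6.69 in traced fibroblasts after TAC and sham and at 7.91 and 7.12 in untraced fibroblasts after TAC and sham. Smad7 stood at 10.68 and 9.88 in traced and at 10.57 and 10.04 in untraced fibroblasts after TAC and sham. On the endothelial arrays both stood slightly lower after TAC, Smad6 at 8.13 after TAC and 8.36 after sham and Smad7 at 10.65 after TAC and 10.87 after sham. The type I receptor gene Acvr1 stood at 10.85 and 9.83 in traced and at 10.62 and 10.08 in untraced fibroblasts after TAC and sham. In the fibroblast arrays the T-box gene Tbx2 stood at 8.17 and 7.17 in traced and at 8.16 and 7.27 in untraced cells after TAC and sham. Acvr1 and Tbx2 were also chosen after their values were seen. For Smad6, Smad7, Acvr1 and Tbx2 both fibroblast TAC levels lay above both sham levels, as for 34.0% of detected genes. None of these differences was tested.

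Chordin, a secreted BMP antagonist gene that was also chosen after its values were seen, went the way of Gdf10 in fibroblasts. It stood at 7.98 and 8.93 in traced and at 8.28 and 9.44 in untraced fibroblasts after TAC and sham. Both fibroblast TAC levels of chordin thus lay below both sham levels, as for 26.2% of detected genes. Its 6.48 after TAC and 6.0 after sham on the endothelial arrays were below the array medians.

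Other markers also moved with surgery. The mural markers had a median TAC difference of -1.28 over 7 detected genes in fibroblasts and -0.74 over 8 in endothelial cells. The macrophage markers had medians of 0.13 and 0.92 over 5 detected genes each, in fibroblasts and in endothelial cells, and the cardiomyocyte markers 0.14 over 5 and -1.10 over 8. Immediate early genes had a median of 0.61 over 12 genes in endothelial cells. The part of these cell types in the BMP values was not tested.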
